A study of Mus musculus with 36 samples.

Results

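The genes described here are the 37 genes of the mouse mitochondrial genome, chosen because their chromosome in the count table was the mitochondrial one. They are 37 of the 49671 genes in the table, namely 13 protein-coding genes, 2 ribosomal RNA (rRNA) genes and 22 transfer RNA (tRNA) genes. The data were 36 libraries of strand-specific, single-end RNA-seq of mouse pluripotent stem cells from 3 lines named for their targeted gene. The lines were Setd1a (a histone H3 lysine 4 methyltransferase), Bod1L (a protein that binds SETD1A) and Mll2 (another methyltransferase of that lysine, encoded by the gene Kmt2b). Each line was sampled as KO cells and as WT cells. Titles name tamoxifen for KO cells and no treatment for WT cells, so tamoxifen and genotype cannot be told apart. The sources used here do not give the recombinase, the time after tamoxifen or the clones. Cells were grown in 2i (LIF with the inhibitors PD0325901 and CT99021, labelled naive embryonic stem cells), in FCS (LIF and serum, labelled cycling embryonic stem cells) or as EpiSC (Activin A and FGF2, labelled epiblast-like stem cells), so medium and cell type changed together. Each of the 18 groups held 2 libraries labelled as biological replicates, so p-values rest on the spread between such cultures of 1 line each.

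Mitochondrial DNA is copied and transcribed inside the organelle by nuclear-encoded proteins. A single RNA polymerase, POLRMT, reads each strand as a long transcript that carries many genes. Most mRNA and rRNA genes are flanked by tRNA genes, and cutting out the tRNAs releases the pieces between them. The mRNAs receive short poly(A) tails, while tRNAs do not carry such tails in their mature form. The 13 proteins are core subunits of complex I (mt-Nd genes), complex III (mt-Cytb), complex IV (mt-Co genes) and ATP synthase (mt-Atp genes) of the respiratory chain. Naive embryonic stem cells are known to use both respiration and glycolysis, and primed epiblast-like cells to rely mainly on glycolysis.

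The genome is so compact that neighbouring genes share bases, and this sets what a read count per gene can mean. Reads that overlapped genes of the same strand at once were counted for neither, by the counting settings in the file header. Of 9 neighbouring pairs that overlap, 6 lie on the same strand. The longest shared stretch is 43 bases, between mt-Atp8 and mt-Atp6, which leaves 161 of the bases of mt-Atp8 outside it. The 2 sequences shown are those of GRCm38, plus strand, read from GENCODE M21 transcripts, with the bases shared with the next gene in capitals, and are shown because reads over the capitals are missing from the counts of both genes. The first is the whole of mt-Atp8 (chrM:7766-7969), and the second the last 60 bases of mt-Nd4l (chrM:10114-10173), which shares 7 bases with mt-Nd4.
mt-Atp8: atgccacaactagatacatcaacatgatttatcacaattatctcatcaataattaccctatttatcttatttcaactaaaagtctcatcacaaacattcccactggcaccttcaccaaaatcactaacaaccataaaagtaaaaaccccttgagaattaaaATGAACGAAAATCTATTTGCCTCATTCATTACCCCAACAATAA
mt-Nd4l: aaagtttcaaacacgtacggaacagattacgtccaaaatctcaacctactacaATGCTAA

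Poly(A) selection came before library making, and the tail also completes some of the reading frames. Of the 13 mRNA genes, 10 end in a complete stop codon and 3 (mt-Co3, mt-Nd4 and mt-Cytb) end in a lone T that the poly(A) tail turns into a stop. The last 15 bases of these 3 and of mt-Nd1, mt-Nd3 and mt-Co1 are given on the plus strand of GRCm38, with the stop letters in capitals, at chrM:9376-9390, chrM:11530-11544, chrM:15274-15288, chrM:3693-3707, chrM:9792-9806 and chrM:6858-6872, in the order of the lines. They are shown because, among the mRNAs, mt-Nd3 had the highest and mt-Co3 the lowest difference in Setd1a KO cells.
mt-Co3: attgatgaggatctT
mt-Nd4: caggcctgacaataT
mt-Cytb: taaaattatatccaT
mt-Nd1: ccaccatacataTAG
mt-Nd3: gaatgaacagagTAA
mt-Co1: gtaaaagtaaaaTAA

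The 3 tRNA genes with the highest mean level are shown with the anticodon in capitals, because they hold most of the tRNA reads. They are mt-Tp (proline, minus strand, chrM:15356-15422), mt-Tw (tryptophan, plus strand, chrM:4950-5016) and mt-Ts1 (serine, minus strand, chrM:6870-6938).
mt-Tp: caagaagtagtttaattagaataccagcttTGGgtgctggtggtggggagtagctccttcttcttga
mt-Tw: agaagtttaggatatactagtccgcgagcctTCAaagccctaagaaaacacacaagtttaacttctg
mt-Ts1: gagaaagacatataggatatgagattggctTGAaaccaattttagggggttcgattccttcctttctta

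A library held 24.5 to 40.6 M (mega) gene counts, with a median of 32.6 M, and 14 of the 37 genes had more than 1000 counts in every library. Levels are given in CPM, the counts per M counts of the library's total after TMM scaling, and per kilobase of gene length (RPKM) where genes are compared with each other. In the Bod1L line, Bod1l fell to 33.6 to 62.2 CPM in KO cells, against 166 to 345 CPM in WT cells. Setd1a was at 37.3 to 43.8 CPM in Setd1a KO cells and 40.9 to 58.8 CPM in their WT cells. Kmt2b was at 113 to 145 CPM in Mll2 KO cells and 89.6 to 210 CPM in their WT cells, so counts over the whole gene do not check the labels of the Setd1a and Mll2 lines. Library numbers in the file header formed a lower block of 23 and a higher block of 13, and the higher block held all 12 EpiSC libraries and Setd1a KO 2i replicate 1. EpiSC medium and this block therefore cannot be told apart. General pluripotency markers (Pou5f1, Sox2, Sall4, Nanog and Lin28a) summed to 774 to 2435 CPM in EpiSC, 1629 to 2836 CPM in FCS and 1923 to 3561 CPM in 2i libraries. Naive markers were Esrrb, Klf4, Tfcp2l1, Zfp42, Nr0b1, Prdm14, Tbx3 and Klf2. As EpiSC they summed to 360 to 534 CPM in Setd1a KO and 353 to 531 CPM in Setd1a WT libraries. Those sums were 17.6 to 39.1 CPM in Bod1L and 29.9 to 45.3 CPM in Mll2 EpiSC libraries. Primed markers were Fgf5, Otx2, Pou3f1, Dnmt3b, Lef1, T and Fst. They summed to 155 to 1553 CPM in EpiSC, 236 to 1533 CPM in FCS and 63.1 to 195 CPM in 2i libraries. In 2 libraries, Setd1a KO 2i replicate 2 and Mll2 WT 2i replicate 2, mitochondrial rRNA reached 26.8 and 33.8 reads per 100 mitochondrial mRNA reads, above the 6.50 to 13.0 of the other 2i libraries. Results for mitochondrial genes that rest on them are also given without them, a choice made after seeing the data.

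Read counts were spread very unevenly over the 37 genes. The mRNA of mt-Co1, the catalytic subunit of complex IV, took 27.15% of all mitochondrial counts. Next came mt-Atp6 (the proton channel subunit of ATP synthase) with 10.99%, mt-Co2 with 9.98% and mt-Rnr2 (the large rRNA) with 9.11%. The share was 8.24% for mt-Cytb (cytochrome b), 8.19% for mt-Co3, 7.33% for mt-Nd1, 6.32% for mt-Nd4, 4.95% for mt-Nd5 and 3.99% for mt-Nd2. It was 1.30% for mt-Nd3, 1.081% for mt-Rnr1 (the small rRNA), 0.867% for mt-Nd4l, 0.290% for mt-Nd6 and 0.189% for mt-Atp8.

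Per kilobase the mRNAs still differed widely although nearly all of them have the sequence of the same strand. The highest mean levels were 7375 ± 2000 RPKM for mt-Co1, 6884 ± 3076 RPKM for mt-Atp6, 6138 ± 1750 RPKM for mt-Co2 and 4336 ± 1294 RPKM for mt-Co3 (SD, n = 36 libraries each). Next came mt-Nd1 with 3271 ± 1758 RPKM and mt-Cytb with 3061 ± 1368 RPKM, which differed by less than their SD. The other complex I mRNAs of the plus strand had 1935 ± 683 RPKM for mt-Nd4, 1633 ± 811 RPKM for mt-Nd2, 1589 ± 925 RPKM for mt-Nd3, 1230 ± 497 RPKM for mt-Nd4l and 1134 ± 382 RPKM for mt-Nd5. The means of mt-Co1 and mt-Atp6 differed by less than their SD over libraries, as did those of mt-Nd4, mt-Nd2 and mt-Nd3. Lowest among the mRNAs were mt-Atp8 with 396 ± 193 RPKM and mt-Nd6 with 231 ± 93.8 RPKM. RPKM divides by the whole gene length, although reads over bases shared with a gene of the same strand were not counted. The value of mt-Atp8, which shares 43 of its 204 bases with mt-Atp6, is therefore too low by an amount that was not estimated. Its place in this ranking may rest on that. The mt-Nd6 gene is the only protein-coding gene whose mRNA has the sequence of the minus strand. The rRNAs were at 2449 ± 1919 RPKM for mt-Rnr2 and 487 ± 464 RPKM for mt-Rnr1. These rRNA levels followed poly(A) selection and a rRNA removal kit, and the sources used here do not say whether that kit acts on mitochondrial rRNA.

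The 22 tRNA genes were at the lower end of detection. Their reads made up 153 to 982 of each M of mitochondrial reads in single libraries. For 6 of them (mt-Tf, mt-Tk, mt-Tg, mt-Tr, mt-Ts2 and mt-Tl2) every library had 0 counts, which allows up to 3 counts in a library by counting error alone, and 13 of the 22 had a mean count under 10. The 3 highest were mt-Tp with 78.5 ± 42.0 RPKM, mt-Tw with 39.1 ± 19.0 RPKM and mt-Ts1 with 27.1 ± 17.3 RPKM (SD, n = 36). Of the 37 genes, 26 passed the filter on low counts, comprising all 13 mRNA genes, both rRNA genes and 11 tRNA genes, and counts of genes that rose or fell refer to these 26.

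**Figure D1:**
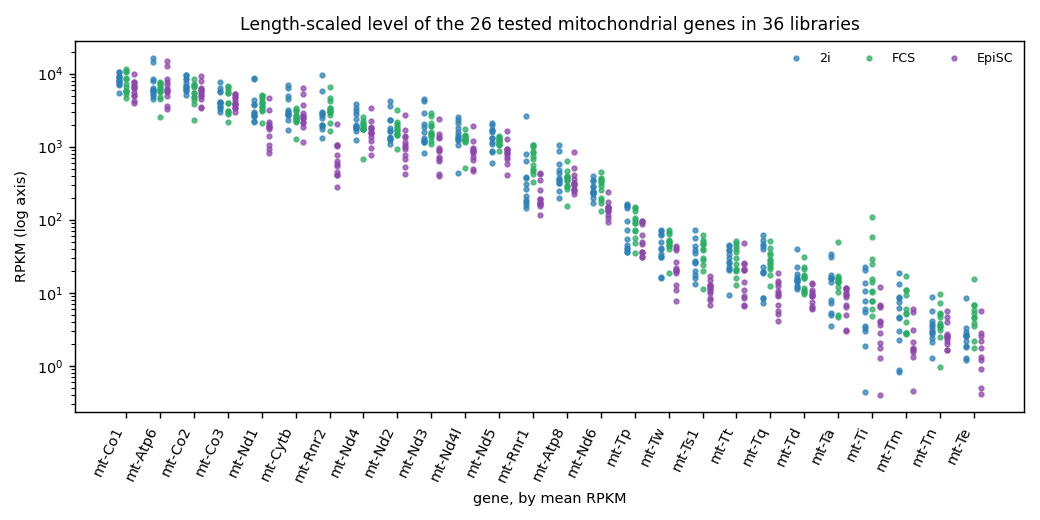
Level of the 26 tested mitochondrial genes in each of the 36 libraries, in RPKM on a log axis, with points coloured by medium and values of 0 not drawn. The mRNAs run from a mean of 231 RPKM for mt-Nd6 to 7375 RPKM for mt-Co1, and the tRNAs lie below them.

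Near-identical copies of 7 of the mRNA genes lie side by side on chromosome 1 and could split reads with them. The copies of mt-Nd4 (Gm28439, 876 aligned bases), mt-Nd4l (Gm10222, 294), mt-Nd3 (Gm28438, 342), mt-Co3 (Gm28437, 783), mt-Atp6 (Gm10925, 678) and mt-Co2 (Gm28661, 681) matched in every aligned base, and that of mt-Co1 (Gm29216, 483) at 99.79%. The copies held 0.0566% to 0.248% as many counts as the mitochondrial gene, or 0.751 counts per 1000 mitochondrial counts together. The handling of reads that match both places is not given here, and a read dropped at both places is in neither count. The counts of these 7 genes are therefore uncertain, by an amount that the counts at the copies do not bound.

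The share of all gene counts that came from the mitochondrial genome ran from 1.98% to 7.71% (median 3.92%) over the 36 libraries. In the Setd1a line in 2i it was 7.32% and 7.71% in KO cells, against 4.11% and 3.43% in WT cells. In FCS it was 4.33% and 4.25% in Setd1a KO cells, against 5.09% and 3.60% in WT cells. As EpiSC it was 6.27% and 3.89% in Setd1a KO cells, against 3.42% and 1.98% in WT cells. Both KO libraries lay above both WT libraries in 2i and EpiSC, while in FCS the groups overlapped.

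In the Bod1L line the share in 2i was 5.60% and 5.48% in KO cells, against 4.31% and 4.21% in WT cells. As EpiSC it was 3.94% and 4.71% in Bod1L KO cells, against 2.41% and 2.498% in WT cells. In FCS it was 3.89% and 2.46% in Bod1L KO cells, against 3.89% and 3.62% in WT cells. Here too KO lay above WT in 2i and EpiSC but not in FCS.

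In the Mll2 line the share was 3.50% and 4.40% in 2i KO cells, against 3.71% and 3.31% in WT cells. It was 5.85% and 5.17% in FCS KO cells, against 4.85% and 4.63% in WT cells. It was 3.43% and 3.10% in EpiSC KO cells, against 3.55% and 3.16% in WT cells. Only FCS separated KO from WT in the Mll2 line. Averaged over the media, the KO share minus the WT share was 2.02 percentage points for Setd1a, 0.858 for Bod1L and 0.372 for Mll2. The pooled SD between replicates was 0.647 percentage points. The 95% Wilson interval of the highest share was 7.70% to 7.72%, which covers counting error only and is narrower than this spread. In bulk RNA, a difference in the number of mitochondria per cell, in the RNA per mitochondrion or in the rest of the RNA cannot be told apart.

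**Figure D2:**
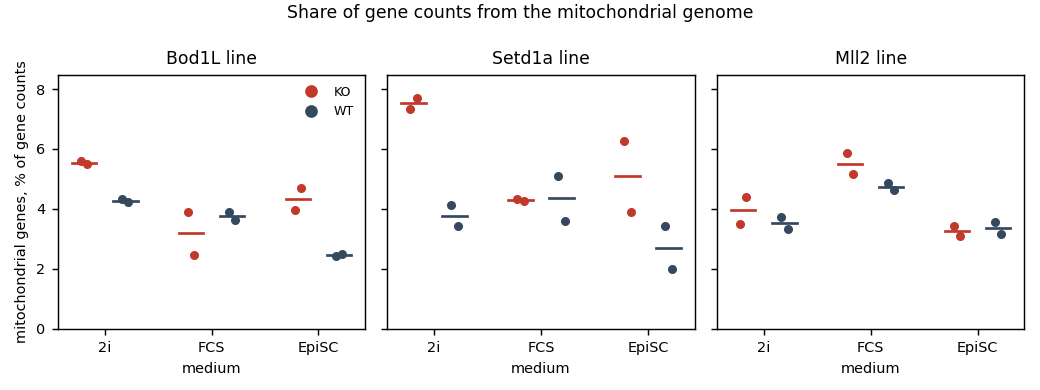
Share of all gene counts from the 37 mitochondrial genes, in percent, in each library by line and medium, with KO to the left of WT and lines at the means of 2 libraries. Setd1a KO libraries in 2i are highest at 7.32% and 7.71%, and a Setd1a WT EpiSC library is lowest at 1.98%.

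Setd1a KO cells had more of most complex I, complex III, ATP synthase and ribosomal RNAs of the mitochondrial genome than WT cells, while no complex IV mRNA passed the test. Averaged over the 3 media, 10 of the 26 tested genes rose and 0 fell. Over all 23501 genes tested, 3.29% rose and 5.57% fell. The median log2 difference was 0.58 over the 26 genes and 0.065 over all genes tested. Fold changes are edgeR log2 values with SE, and adjusted p-values are from its quasi-likelihood test with Benjamini-Hochberg adjustment over all genes tested. Of the 10 genes, 7 kept their call under each of the 18 alternative settings.

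The highest averaged differences among the mRNAs were those of mt-Nd3, mt-Nd2 and mt-Nd1, all of complex I. For mt-Nd3, a small membrane subunit of complex I (ENSMUSG00000064360, chrM:9459-9806), 2i levels were 1464 and 1583 CPM in Setd1a KO cells, against 404.4 and 286.5 CPM in WT cells. EpiSC levels of mt-Nd3 were 830.0 and 523.4 CPM in KO cells, against 248.3 and 145.7 CPM in WT cells. In FCS they were 741.1 and 993.2 CPM in KO cells, against 473.5 and 902.5 CPM in WT cells. KO and WT libraries did not overlap in 2i and EpiSC and overlapped in FCS. The averaged log2 difference of mt-Nd3 was 1.42 ± 0.20 (adjusted p = 3.02e-05).

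For mt-Nd1, the membrane subunit at the junction of the complex I arms (ENSMUSG00000064341, chrM:2751-3707), 2i levels were 8339 and 8140 CPM in Setd1a KO cells, against 2590 and 2099 CPM in WT cells. In FCS mt-Nd1 was at 4653 and 4910 CPM in KO cells, against 3721 and 2987 CPM in WT cells. EpiSC levels were 4496 and 3060 CPM in KO cells, against 1675 and 884.7 CPM in WT cells. Every KO library exceeded the WT libraries of its own medium, with a log2 difference of 1.29 ± 0.18 (adjusted p = 2.55e-05).

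For mt-Nd2, a proton-pumping subunit of complex I (ENSMUSG00000064345, chrM:3914-4951), 2i levels were 4411 and 3745 CPM in Setd1a KO cells, against 1312 and 1120 CPM in WT cells. In FCS mt-Nd2 was at 2095 and 3284 CPM in KO cells, against 1565 and 1736 CPM in WT cells. EpiSC levels were 2798 and 1744 CPM in KO cells, against 966.6 and 552.2 CPM in WT cells. The groups did not overlap in any medium, and all 6 KO libraries exceeded all 6 WT libraries of the Setd1a line. The log2 difference was 1.34 ± 0.19 (adjusted p = 4.59e-05).

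The other complex I mRNAs had lower differences. The proton-pumping subunit mt-Nd5 rose by a log2 difference of 0.81 ± 0.17 (adjusted p = 0.00272) and mt-Nd4 by 0.77 ± 0.20 (adjusted p = 0.0184). The call of mt-Nd4 was lost when any of 5 single libraries was left out, with adjusted p = 0.0518 without KO 2i replicate 1, 0.0607 without WT 2i replicate 2, 0.0613 without WT FCS replicate 2, 0.0934 without KO EpiSC replicate 1 and 0.0762 without WT EpiSC replicate 2. For mt-Nd4l the difference was 0.71 ± 0.23 (adjusted p = 0.0608, and 0.0104 with the replicate pairs as a block). The minus-strand gene mt-Nd6 had a log2 difference of −0.04 ± 0.19 (adjusted p = 0.94).

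Outside complex I, the cytochrome b mRNA mt-Cytb of complex III rose by a log2 difference of 0.98 ± 0.22 (adjusted p = 0.00526). For mt-Cytb, 2i levels were 8053 and 7279 CPM in Setd1a KO cells, against 3124 and 2674 CPM in WT cells. Both ATP synthase mRNAs rose, mt-Atp8 by 1.12 ± 0.21 (adjusted p = 0.00127) and mt-Atp6 by 0.975 ± 0.21 (adjusted p = 0.00335). Levels of mt-Atp6 in 2i were 11260 and 9694 CPM in KO cells, against 4025 and 3398 CPM in WT cells. Both KO libraries lay above both WT libraries. Of the 3 mRNAs with an incomplete stop codon, mt-Cytb and mt-Nd4 passed the test and mt-Co3 did not, and the difference between these genes was not tested.

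The complex IV mRNAs had lower differences. For mt-Co1 (ENSMUSG00000064351, chrM:5328-6872), 2i levels were 16000 and 16010 CPM in Setd1a KO cells, against 14160 and 11090 CPM in WT cells. In FCS mt-Co1 was at 10180 and 7218 CPM in KO cells, against 16800 and 8876 CPM in WT cells. EpiSC levels were 15120 and 10290 CPM in KO cells, against 10710 and 6508 CPM in WT cells. KO lay above WT only in 2i, and the averaged log2 difference was 0.11 ± 0.17 (adjusted p = 0.748).

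The third subunit mRNA of complex IV, mt-Co3, was at 3061 and 3237 CPM in Setd1a KO cells in 2i, against 2860 and 2603 CPM in WT cells. In FCS mt-Co3 was at 2436 and 1696 CPM in KO cells, against 4266 and 2383 CPM in WT cells. EpiSC levels were 3739 and 2907 CPM in KO cells, against 3107 and 2352 CPM in WT cells. The averaged difference was −0.07 ± 0.14 (adjusted p = 0.844). For mt-Co2, which carries the copper site that accepts electrons from cytochrome c, the difference was 0.45 ± 0.17 (adjusted p = 0.109, and 0.00793 with the block).

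Both rRNAs rose in Setd1a KO cells, mt-Rnr1 by a log2 difference of 1.33 ± 0.33 (adjusted p = 0.0122) and mt-Rnr2 by 1.05 ± 0.30 (adjusted p = 0.0296). These calls leaned on single libraries. Levels of mt-Rnr2 in 2i were 3893 and 14890 CPM in KO cells, against 4479 and 2733 CPM in WT cells, so 1 KO library lay within the WT range and the other far above it. Without that library the differences were 0.886 for mt-Rnr1 (adjusted p = 0.0876) and 0.64 for mt-Rnr2 (adjusted p = 0.184). The call of mt-Rnr1 was also lost without WT 2i replicate 2 (adjusted p = 0.0529) or WT FCS replicate 2 (0.0525). That of mt-Rnr2 was also lost without KO EpiSC replicate 1 (adjusted p = 0.117), WT FCS replicate 2 (0.103), WT 2i replicate 2 (0.1), WT EpiSC replicate 2 (0.0785), KO FCS replicate 2 (0.0689) or WT EpiSC replicate 1 (0.0508). EpiSC levels of mt-Rnr2 were 3213 and 1677 CPM in Setd1a KO cells, against 713.5 and 645.8 CPM in WT cells, with no overlap.

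Of the 11 tested tRNA genes, none changed in Setd1a KO cells by the averaged test, with 1 at an unadjusted p below 0.05. This was mt-Ti (isoleucine), at a log2 difference of 1.21 (adjusted p = 0.215, and 0.0448 with the block). The median over the 11 tRNA genes was 0.002, against 0.809 over the 13 mRNA genes. With the 18 replicate pairs as a block, the count of genes that rose in Setd1a KO cells went up to 13, and the share of all genes that rose to 14.3%.

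By medium, mitochondrial genes passed the test in Setd1a KO cells in 2i and as EpiSC. In 2i, 6 of the 26 genes rose, against 0.251% of all genes tested. They were mt-Rnr1 (2.53, adjusted p = 0.0261), mt-Nd3 (2.14, adjusted p = 0.00116), mt-Nd1 (1.81, adjusted p = 0.00171), mt-Atp8 (1.80, adjusted p = 0.0112), mt-Nd2 (1.75, adjusted p = 0.00483) and mt-Atp6 (1.497, adjusted p = 0.0303). As EpiSC, 4 genes rose, against 0.14% of all genes tested. They were mt-Nd3 (1.78, adjusted p = 0.00577), mt-Nd2 (1.58, adjusted p = 0.0126), mt-Nd1 (1.56, adjusted p = 0.00697) and mt-Nd5 (1.18, adjusted p = 0.0389). With the block the counts were 10 in 2i, against 5.98% of all genes, and 11 as EpiSC, against 6.25%.

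In FCS, 0 of the 26 genes were called in Setd1a KO cells by edgeR or DESeq2, where edgeR called 0.762% of all genes in either direction. There 3 genes had an unadjusted edgeR p below 0.05, with log2 differences of 0.70 for mt-Nd2, −0.69 for mt-Co3 and −0.70 for mt-Nd6. The test of a KO effect that differed between the 3 media called 0 of the 26 genes by edgeR and 0% of all genes, although 11 of the 26 had an unadjusted p below 0.05, against 2% of all genes. With the block it called mt-Nd3 (adjusted p = 0.0456), against 0.179% of all genes. The 2i and EpiSC counts changed whichever single library of the group pair was left out. Those fits took the trend of the spread from a subset of the genes, unlike the main fit. Leaving out any 1 library of the group pair gave 1 to 3 genes in 2i, with 1 without WT 2i replicate 2. As EpiSC it gave 0 without KO EpiSC replicate 1 or WT EpiSC replicate 2, and 7 without KO EpiSC replicate 2 or WT EpiSC replicate 1. Without Setd1a KO 2i replicate 2 and Mll2 WT 2i replicate 2 the 2i count was 4 and the averaged count 9. Without them mt-Rnr1 (1.15, adjusted p = 0.397) and mt-Atp6 (1.602, adjusted p = 0.118) lost their 2i calls, and the averaged differences were 0.874 for mt-Rnr1 (adjusted p = 0.0257) and 0.627 for mt-Rnr2 (adjusted p = 0.119), which was no longer called.

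Markers of feeder fibroblasts (Col1a1, Col1a2, Col3a1, Thy1, Dcn, Lum and Postn) varied in the same EpiSC cultures, and summed to 162 to 3998 CPM in Setd1a KO EpiSC libraries and 146 to 1083 CPM in WT EpiSC libraries. Averaged over media, 0 of the 7 passed the test in Setd1a KO cells, with a median log2 difference of 1.44, and 4 rose with the block, against 14.3% of all genes. In 2i they summed to 9.84 to 11.95 CPM in Setd1a KO libraries and 4.09 to 4.84 CPM in WT libraries. These 2i sums are low, and Col3a1, Dcn, Lum and Postn were at 0 in some 2i libraries. The part of feeder cells in the differences of the mitochondrial genes was not tested.

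**Figure D3:**
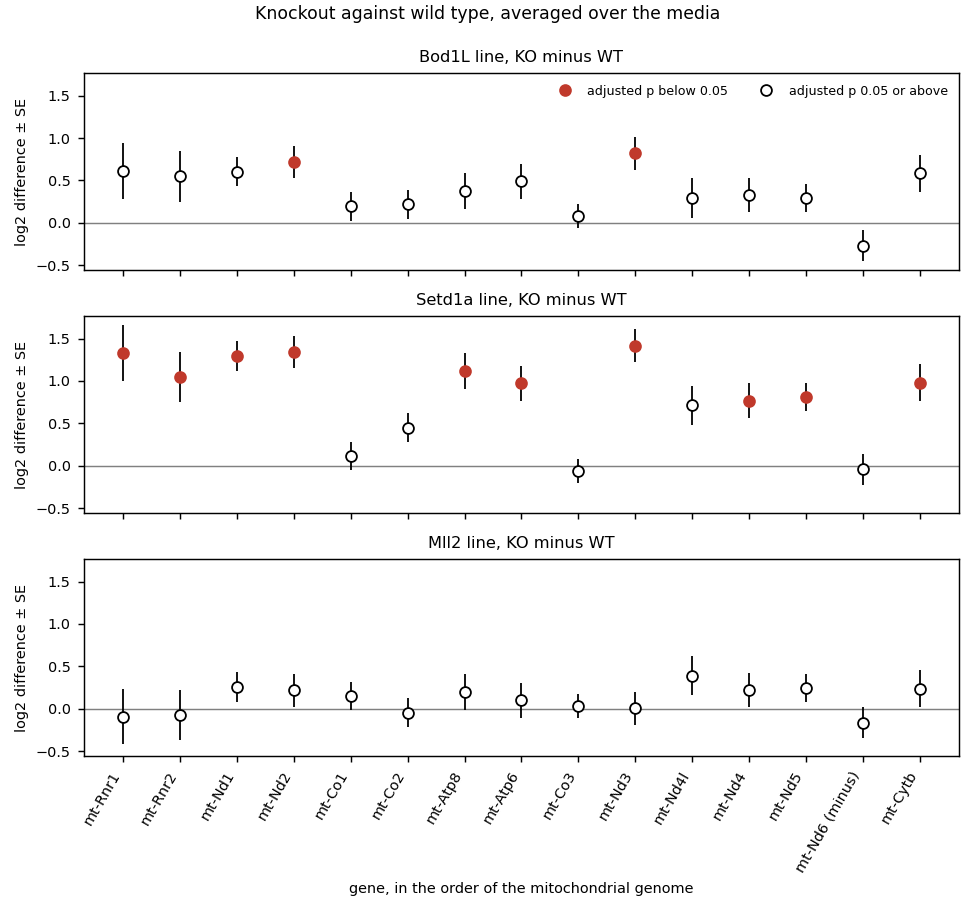
Averaged log2 difference (KO over WT, edgeR) with SE for the 13 mRNA and 2 rRNA genes in genome order, in the Setd1a, Bod1L and Mll2 lines, with adjusted p below 0.05 in red and mt-Nd6 marked as the minus-strand gene. Setd1a has 10 called genes, with mt-Co1, mt-Co3 and mt-Nd6 near 0, Bod1L has 2 and Mll2 none.

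In Bod1L KO cells the complex I mRNAs mt-Nd3 and mt-Nd2 had the highest differences among the mRNAs. Averaged over media, mt-Nd3 and mt-Nd2 rose and 0 of the 26 genes fell, against 0.102% of all genes tested that rose. The median log2 difference was 0.291 over the 26 genes and 0.045 over all genes. For mt-Nd3, Bod1L levels in 2i were 636.1 and 720.1 CPM in KO cells, against 410.5 and 407.8 CPM in WT cells. In FCS they were 501.3 and 525.9 CPM in KO cells, against 382.5 and 418.2 CPM in WT cells. EpiSC levels of mt-Nd3 were 456.1 and 467.9 CPM in KO cells, against 219.2 and 137.5 CPM in WT cells. The groups did not overlap in any medium, all 6 KO libraries exceeded all 6 WT libraries of the Bod1L line, and the log2 difference was 0.82 ± 0.19 (adjusted p = 0.0198).

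For mt-Nd2, Bod1L levels in 2i were 2392 and 2401 CPM in KO cells, against 1267 and 1414 CPM in WT cells. In FCS they were 2272 and 975.7 CPM in KO cells, against 1484 and 1761 CPM in WT cells. EpiSC levels of mt-Nd2 were 1469 and 1388 CPM in KO cells, against 708.0 and 444.0 CPM in WT cells. The FCS groups overlapped and the others did not, with a log2 difference of 0.72 ± 0.19 (adjusted p = 0.0492). Leaving out single libraries lost the call of mt-Nd2 in 10 of 12 cases, all but KO FCS replicate 2 and WT EpiSC replicate 1, with a difference down to 0.465 (adjusted p = 0.331) without KO FCS replicate 1. The call of mt-Nd3 was lost in 5 cases, with adjusted p = 0.0712 without KO 2i replicate 2, 0.0672 without WT 2i replicate 1, 0.0544 without WT 2i replicate 2, 0.066 without WT FCS replicate 1 and 0.0852 without WT EpiSC replicate 2.

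The remaining mRNAs of Bod1L KO cells had log2 differences of 0.60 ± 0.17 for mt-Nd1 (adjusted p = 0.088) and 0.58 ± 0.22 for mt-Cytb (adjusted p = 0.306). Both passed with the replicate pairs as a block, at adjusted p = 0.0204 for mt-Nd1 and 0.0329 for mt-Cytb, where 2.11% of all genes rose. Values were 0.49 for mt-Atp6, 0.37 for mt-Atp8, 0.33 for mt-Nd4, 0.29 for mt-Nd5, 0.29 for mt-Nd4l, 0.22 for mt-Co2, 0.19 for mt-Co1, 0.08 for mt-Co3 and −0.27 for mt-Nd6. The rRNAs had 0.61 for mt-Rnr1 and 0.55 for mt-Rnr2. None of these passed the test with or without the block.

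By medium, no mitochondrial gene was called in Bod1L KO cells by edgeR. As EpiSC, edgeR called 0.438% of all genes in either direction. There DESeq2 called 4 of the 26 genes, and its share of all genes is not given here. With the block 6 rose, against 0.557% of all genes that rose with it. There 12 of the 26 had an unadjusted p below 0.05, all with higher levels in KO cells, against 1.86% of all genes. An unadjusted p below 0.05 was found for 3 of the 26 genes in 2i, against 4.21% of all genes, and for 1 in FCS, against 4.57%, while 0.374% and 0.191% of all genes were called in 2i and FCS. The EpiSC log2 differences included 1.37 for mt-Nd3, 1.31 for mt-Nd2, 1.26 for mt-Atp6 and 1.20 for mt-Cytb. In the same Bod1L EpiSC libraries the feeder markers summed to 1193 to 5234 CPM in KO cells and 1097 to 6740 CPM in WT cells, and their part was not tested.

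Mll2 KO cells showed no called mitochondrial gene when averaged over media. By edgeR 0 of the 26 genes passed, 0 had an unadjusted p below 0.05 and DESeq2 called 0, where edgeR called 0.694% of all genes in either direction. Log2 differences of the mRNAs ran from −0.165 for mt-Nd6 to 0.39 for mt-Nd4l, with 0.26 for mt-Nd1, 0.00 for mt-Nd3, 0.15 for mt-Co1 and 0.03 for mt-Co3. The rRNAs were at −0.09 for mt-Rnr1 and −0.07 for mt-Rnr2.

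Within 2i, 1 gene fell in Mll2 KO cells, the glutamine tRNA mt-Tq, against 0.43% of all genes tested. It had 20 and 16 counts in KO libraries, against 99 and 101 counts in WT libraries, with a log2 difference of −2.41 ± 0.52 (adjusted p = 0.0324). The call of mt-Tq was lost without the 2 libraries of high rRNA (adjusted p = 0.228), and without KO 2i replicate 1 (0.296), KO 2i replicate 2 (0.308) or WT 2i replicate 2 (0.192) alone. In FCS 0 of the 26 genes passed or had an unadjusted p below 0.05, and as EpiSC 0 passed and 1 had an unadjusted p below 0.05, with 0% of all genes called in either medium. The test of a KO effect that differed between media called none of the 26 genes in the Bod1L line (0% of all genes) or the Mll2 line (0.00426% of all genes). With the block it called mt-Tq in the Mll2 line (adjusted p = 0.0226), against 1.61% of all genes.

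The KO effects of 2 lines were compared directly in the same edgeR fit, an addition made after seeing the data. The Setd1a effect exceeded the Mll2 effect for mt-Nd3 by 1.42 ± 0.27 (adjusted p = 0.00338), for mt-Nd2 by 1.13 ± 0.27 (adjusted p = 0.019) and for mt-Nd1 by 1.04 ± 0.25 (adjusted p = 0.0187) on the log2 scale. These 3 genes compare with 0.872% of all genes whose effect was higher, and the count was 7 with the block, against 7.71% of all genes, and 6 by DESeq2. Without Setd1a WT 2i replicate 2 only mt-Nd3 passed, and adjusted p was up to 0.055 for mt-Nd1 and 0.0545 for mt-Nd2 over all libraries left out. The Setd1a effect was not shown to differ from the Bod1L effect for any of the 26 genes, with 5 at an unadjusted p below 0.05 and 0.00426% of all genes called. Those differences included 0.69 ± 0.25 for mt-Nd1, 0.63 ± 0.27 for mt-Nd2 and 0.60 ± 0.27 for mt-Nd3. Between the Mll2 and Bod1L effects 0 genes were called by edgeR, with 1 at an unadjusted p below 0.05 and 1.03% of all genes called. With the block the Mll2 effect on mt-Nd3 was below the Bod1L effect by 0.82 (adjusted p = 0.0116), against 2.95% of all genes.

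The mitochondrial mRNA pool of Setd1a KO cells held a smaller share of mt-Co1 than that of WT cells, and ratios within a library do not depend on the scaling between libraries. The share of mt-Co1 among all mitochondrial mRNA reads was 20.6% to 28.2% (median 25.1%) in the 6 Setd1a KO libraries and 28.9% to 38.1% (median 35.7%) in the 6 WT libraries. In 2i it was 23.1% and 24.6% in KO cells, against 38.1% and 35.8% in WT cells. In FCS the mt-Co1 share was 27.4% and 20.6% in KO cells, against 37.5% and 28.9% in WT cells. As EpiSC it was 25.6% and 28.2% in KO cells, against 33.2% and 35.5% in WT cells. The KO and WT libraries of the Setd1a line did not overlap, also in FCS, where the total mitochondrial share did.

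In the Bod1L line the mt-Co1 share was 26.0% to 38.2% in KO cells and 28.4% to 32.8% in WT cells, with KO below WT in 2i and EpiSC and 1 FCS KO library above all WT libraries. In the Mll2 line it was 27.4% to 38.7% in KO cells and 28.2% to 36.8% in WT cells, with overlap. These ratios combine the genes under study, so they carry no p-value.

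The minus-strand mRNA mt-Nd6 can be set against the other 12 mRNAs, which have the sequence of the plus strand. In the Setd1a line it made 1.75 to 3.53 reads per 1000 reads of those mRNAs in KO cells and 2.64 to 5.17 in WT cells. In the Bod1L line mt-Nd6 made 1.61 to 3.19 reads per 1000 in KO cells and 2.41 to 5.06 in WT cells. In the Mll2 line it made 2.48 to 4.22 in KO cells and 2.33 to 7.01 in WT cells. Within each of the 3 media both Setd1a KO libraries lay below both WT libraries. Both Bod1L KO libraries did so in 2i and EpiSC, and the FCS groups overlapped. In the Mll2 line KO lay below WT in 2i, while as EpiSC it lay above.

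The ratio of mitochondrial rRNA to mRNA reads was lowest in the EpiSC libraries. These all lie in the higher block of library numbers, so medium and block cannot be told apart. The ratio was 2.44 to 6.12 rRNA reads per 100 mRNA reads in the 12 EpiSC libraries, 10.3 to 22.2 in the 12 FCS libraries and 6.50 to 33.8 in the 12 2i libraries. The EpiSC libraries did not overlap either of the other media. The lowest 2i values were 6.50 in Setd1a KO 2i replicate 1, of the higher block of library numbers, and 6.54 in Mll2 KO 2i replicate 1, of the lower block. The part of the block in this ratio was not tested.

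**Figure D4:**
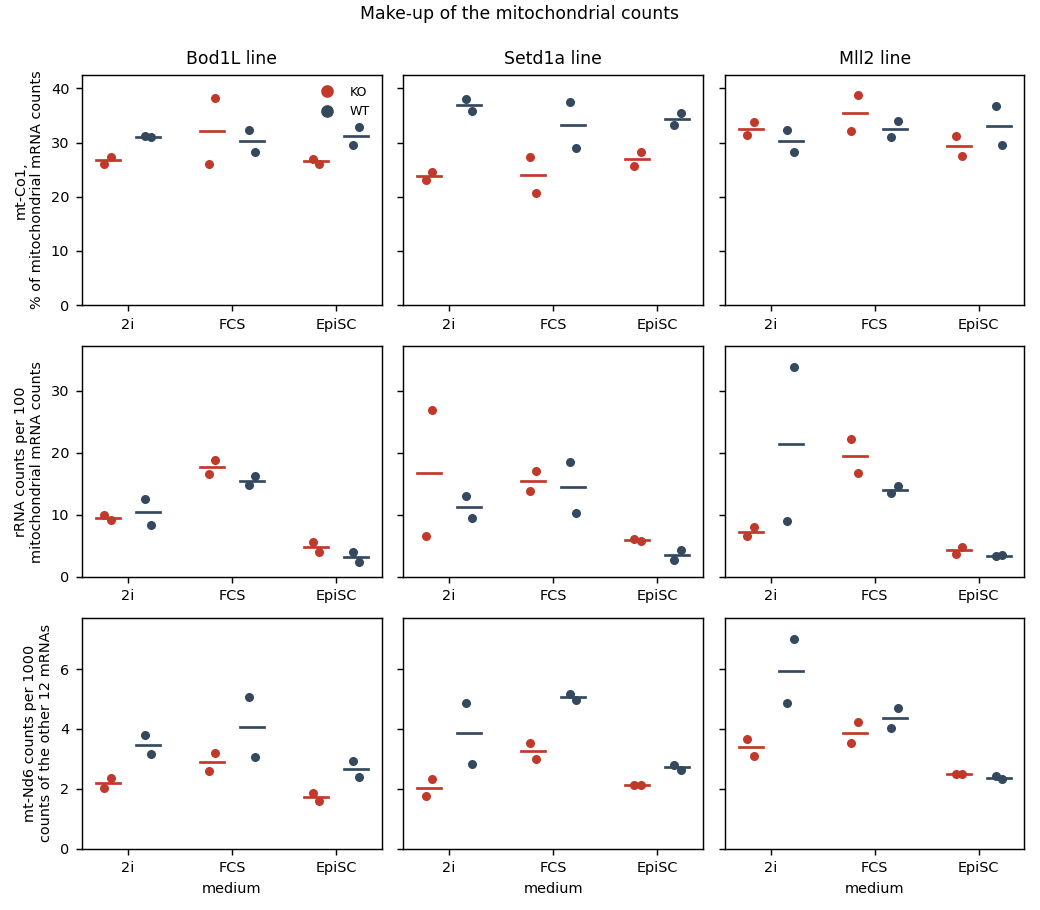
Ratios within the mitochondrial reads of each library by line and medium, with KO left of WT and lines at the means of 2 libraries: mt-Co1 as a percentage of mitochondrial mRNA reads (top), rRNA reads per 100 mRNA reads (middle) and mt-Nd6 reads per 1000 reads of the other mRNAs (bottom). In the Setd1a line all 6 KO libraries lie at or below 28.2% for mt-Co1 and all 6 WT libraries at or above 28.9%.

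Among WT cells the mitochondrial RNAs were lower in EpiSC than in 2i or FCS, mostly the rRNAs, complex I mRNAs and tRNAs. The EpiSC libraries fell together in 1 block of library numbers, as stated above, so these differences cannot be told apart from it. Against WT 2i, 19 of the 26 genes fell and 0 rose, where 27.4% of all genes tested fell and 52.5% changed. All 26 log2 differences were below 0, with a median of −1.02 against −0.069 over all genes. Of the 19 calls, 11 were kept in every setting tried.

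The largest fall was that of mt-Rnr2, at 448.8 to 910.1 CPM (median 683.4) in the 6 WT EpiSC libraries, against 2733 to 9205 CPM (median 3794) in WT 2i. Its log2 difference was −2.66 ± 0.32 (adjusted p = 3.91e-07), and the groups did not overlap. The small rRNA mt-Rnr1 was at 109.7 to 182.9 CPM in WT EpiSC, against 152.6 to 767.3 CPM in WT 2i, with a difference of −1.03 ± 0.33 (adjusted p = 0.0115). The call of mt-Rnr1 was lost without Mll2 WT 2i replicate 2, one of the libraries of high rRNA (−0.51, adjusted p = 0.165), without both of them (−0.528, adjusted p = 0.0703), and without Bod1L WT 2i replicate 1 (adjusted p = 0.0602) or Setd1a WT 2i replicate 1 (0.0624). The difference between the rRNAs was not tested.

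Complex I mRNAs were lower as EpiSC throughout. For mt-Nd1 the WT EpiSC libraries held 784.9 to 1831 CPM (median 1167), against 2099 to 2854 CPM (median 2533) in WT 2i, with no overlap and a difference of −1.02 ± 0.18 (adjusted p = 4.78e-05). For mt-Nd3 WT EpiSC held 137.5 to 302.5 CPM (median 225.9), against 286.5 to 996.9 CPM (median 409.1) in WT 2i, a difference of −1.15 ± 0.20 (adjusted p = 3.72e-05). The minus-strand mt-Nd6 had 48.25 to 89.67 CPM (median 64.11) in WT EpiSC, against 86.98 to 205.6 CPM (median 161.1) in WT 2i, a difference of −1.19 ± 0.19 (adjusted p = 1.71e-05). The differences were −0.88 for mt-Nd2 (adjusted p = 0.000546), −0.75 for mt-Nd4l (adjusted p = 0.0104), −0.64 for mt-Nd5 (adjusted p = 0.00263) and −0.50 for mt-Nd4 (adjusted p = 0.0415). The call of mt-Nd4 was lost in 9 of 12 cases of a library left out, all but Bod1L WT EpiSC replicate 1, Setd1a WT EpiSC replicate 1 and Mll2 WT 2i replicate 2, with adjusted p up to 0.182. Without Mll2 WT 2i replicate 1 the difference was −0.387 for mt-Nd4l (adjusted p = 0.141), which lost its call, and −0.417 for mt-Nd5 (adjusted p = 0.031).

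The mRNAs of complexes III, IV and ATP synthase had smaller differences. For mt-Co1 the WT EpiSC libraries held 6162 to 11920 CPM (median 8038), against 8328 to 14160 CPM (median 11880) in WT 2i, a difference of −0.45 ± 0.17 (adjusted p = 0.0304). For mt-Co2 the difference was −0.43 ± 0.17 (adjusted p = 0.0396). Leaving out single libraries lost the call of mt-Co1 in 7 of 12 cases, all but Bod1L WT EpiSC replicate 2, Setd1a WT 2i replicate 2, Setd1a WT EpiSC replicate 1, Mll2 WT 2i replicate 2 and Mll2 WT EpiSC replicate 1, with adjusted p up to 0.147. It lost that of mt-Co2 in 9 of 12, all but Bod1L WT EpiSC replicate 2, Setd1a WT EpiSC replicate 1 and Mll2 WT EpiSC replicate 1, with adjusted p up to 0.144, and mt-Co2 was also lost without the 2 libraries of high rRNA (−0.367, adjusted p = 0.116). For mt-Atp6 WT EpiSC held 2209 to 4731 CPM (median 3631), against 3063 to 4343 CPM (median 3942) in WT 2i, with overlap and a difference of −0.14 ± 0.20 (adjusted p = 0.586). The differences of mt-Atp8 (−0.18), mt-Co3 (−0.21) and mt-Cytb (−0.32) also missed the threshold.

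Of the 11 tested tRNA genes, 8 fell in WT EpiSC against WT 2i. For mt-Ts1 the difference was −1.86 ± 0.31 (adjusted p = 2.68e-05), for mt-Tw −1.26 ± 0.37 (adjusted p = 0.0073) and for mt-Tp −1.11 ± 0.30 (adjusted p = 0.00327). Without Mll2 WT 2i replicate 2 the difference of mt-Tw was −0.745 (adjusted p = 0.0909), and without both libraries of high rRNA −0.763 (adjusted p = 0.0897), so its call was lost. Levels of mt-Tp were 2.046 to 5.855 CPM (median 2.385) in WT EpiSC, against 2.421 to 10.86 CPM (median 5.641) in WT 2i.

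Against WT FCS the picture was alike, with 20 of the 26 genes lower in WT EpiSC and 0 higher, where 20.6% of all genes tested fell and 41% changed. The comparisons share the WT EpiSC libraries, so they are not independent. The differences were −2.85 ± 0.32 for mt-Rnr2 (adjusted p = 5.38e-07), −1.70 ± 0.33 for mt-Rnr1 (adjusted p = 0.000344), −1.46 ± 0.18 for mt-Nd1 (adjusted p = 1.62e-06), −1.33 ± 0.19 for mt-Nd6 (adjusted p = 1.12e-05) and −1.16 ± 0.19 for mt-Nd2 (adjusted p = 5.78e-05). Levels of mt-Nd1 were 784.9 to 1831 CPM in WT EpiSC and 2987 to 3760 CPM in WT FCS. The mRNAs of mt-Atp6 (−0.17), mt-Atp8 (−0.29), mt-Cytb (−0.22), mt-Co3 (−0.31) and mt-Co2 (−0.32) did not pass. Of the 11 tRNA genes, 10 fell. Of the 20 calls, 14 were kept in every setting tried, and the tRNA genes mt-Td, mt-Ti, mt-Tm and mt-Tt were among those lost in some setting. Single libraries left out ended the call of mt-Co1 in 6 of 12 cases, with adjusted p up to 0.174 without Setd1a WT FCS replicate 1, and that of mt-Nd4 in 2, with up to 0.0597 without Setd1a WT EpiSC replicate 2.

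Between WT FCS and WT 2i 0 of the 26 genes were called by edgeR, where 27.8% of all genes changed, with mt-Nd1 alone at an unadjusted p below 0.05 and 1 gene called by DESeq2. Levels of mt-Nd1 were 2987 to 3760 CPM in WT FCS and 2099 to 2854 CPM in WT 2i, which did not overlap, with a difference of 0.45 ± 0.17 (adjusted p = 0.0582). The differences were 0.67 ± 0.33 for mt-Rnr1 (adjusted p = 0.137) and 0.19 ± 0.30 for mt-Rnr2 (adjusted p = 0.704).

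The feeder fibroblast markers summed to 82.8 to 6740 CPM in WT EpiSC libraries, against 1.94 to 8.68 CPM in WT 2i libraries, and 7 of 7 were higher in WT EpiSC by the test. None of the 7 was at 0 in an EpiSC library, while Col3a1, Dcn, Lum and Postn were at 0 in some 2i libraries. Among WT EpiSC libraries those of the Mll2 line had the lowest sums, at 82.8 to 104 CPM. Their mt-Rnr2 levels were 910.1 and 855.3 CPM. The range of mt-Rnr2 was 448.8 to 910.1 CPM over all WT EpiSC libraries and 2733 to 9205 CPM over WT 2i libraries. The part of feeder cells in the differences between media was not tested.

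**Figure D5:**
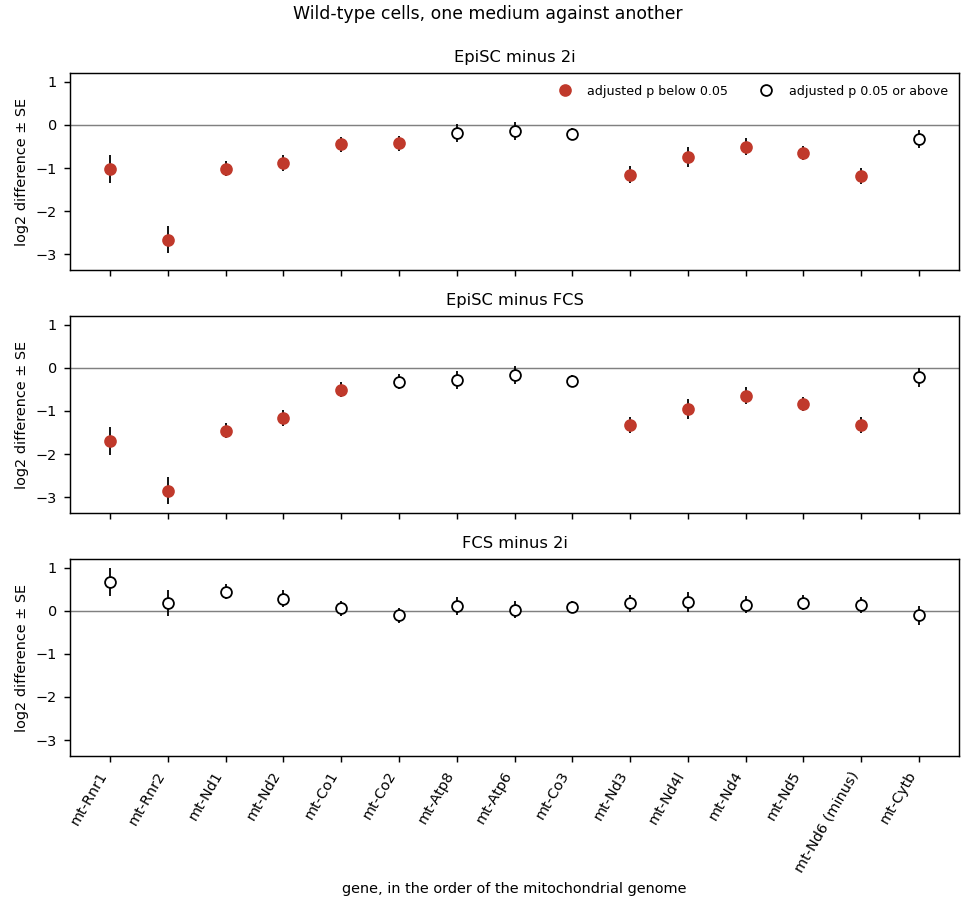
Log2 difference (edgeR) with SE for the 13 mRNA and 2 rRNA genes in genome order, for WT EpiSC over WT 2i, WT EpiSC over WT FCS and WT FCS over WT 2i, with adjusted p below 0.05 in red. The 2 EpiSC comparisons, which share the EpiSC libraries, both reach below −2.6 at mt-Rnr2, and no gene is called between FCS and 2i.

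Few of these genes were called between WT cells of the 3 lines. In Setd1a WT cells the proline tRNA mt-Tp was higher than in Bod1L WT cells by 0.90 ± 0.29 (adjusted p = 0.0472), the only call among 26 genes, where 7.65% of all genes were higher. The call of mt-Tp was lost when any of 8 single libraries was left out, namely Setd1a WT replicate 1 of each medium, both Bod1L WT libraries of FCS and of EpiSC, and Bod1L WT 2i replicate 2, with a difference down to 0.571 (adjusted p = 0.271) without Setd1a WT 2i replicate 1. Between Mll2 WT and Bod1L WT cells edgeR called 0 of the 26 genes (4.65% of all genes), with 3 at an unadjusted p below 0.05 and 1 called by DESeq2. Between Mll2 WT and Setd1a WT cells it called 0 (6.39% of all genes), with 2 at an unadjusted p below 0.05.

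Nuclear genes whose products act on the mitochondrial genome were also read, from lists written with earlier results of these data known. Of 10 genes for mitochondrial transcription, 5 fell and 0 rose in Setd1a KO cells averaged over media, where 5.57% of all genes tested fell. The lowest was Tfb1m, which methylates the small mitochondrial rRNA, at 2.66 to 5.40 CPM (median 4.04) in the 6 KO libraries, against 18.3 to 28.8 CPM (median 19.9) in the 6 WT libraries. Its log2 difference was −2.40 ± 0.23 (adjusted p = 2.34e-07). The packaging and initiation factor Tfam fell by 0.56 ± 0.12 on the log2 scale (adjusted p = 0.0043), with a median of 60.1 CPM in KO cells and 90.8 CPM in WT cells. The polymerase gene Polrmt was not among the 5 that fell. It was at 44.2 to 68.9 CPM (median 49.6) in KO cells and 31.6 to 57.4 CPM (median 38.8) in WT cells, with overlap. Averaged over media, Tfb1m and Tfam were thus lower in Setd1a KO cells, while mt-Nd1, mt-Nd2 and mt-Nd3 were higher. This did not hold for each library. Tfam levels of KO and WT libraries overlapped over the media, and those of mt-Nd3 overlapped in FCS. A link between the nuclear and the mitochondrial differences was not tested.

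Of 14 genes for replication and copy number, 6 fell in Setd1a KO cells and 0 rose. With the block 9 fell and 1 rose, against 11.7% and 14.3% of all genes. The lowest was Dguok, the mitochondrial deoxyguanosine kinase, at 2.36 to 7.37 CPM in KO cells and 12.3 to 29.1 CPM in WT cells (−1.99 ± 0.30, adjusted p = 8.54e-05). Polg2, the accessory subunit of the mitochondrial DNA polymerase, fell by 0.57 (adjusted p = 0.00872). Of 27 tested genes for mitochondrial RNA processing, modification and decay, 9 fell and 0 rose. Taco1, a translational activator of mt-Co1 mRNA, was at 3.92 to 4.73 CPM (median 4.46) in KO cells, against 16.2 to 20.8 CPM (median 17.4) in WT cells, a difference of −2.04 ± 0.19 (adjusted p = 1.52e-07). Fastkd3, of the FASTK family of mitochondrial RNA-binding proteins, fell by 0.70 (adjusted p = 0.00223).

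Among nuclear genes for partner subunits of the same complexes, the calls in Setd1a KO cells were mostly falls in complex I. Of 36 nuclear complex I genes, 9 fell and 0 rose in Setd1a KO cells (16 fell with the block), with a median log2 difference of −0.338. Of all genes tested, 5.57% fell, and 11.7% with the block. Ndufb3, an accessory subunit, was at 15.1 to 29.5 CPM in KO cells and 31.4 to 43.0 CPM in WT cells (−0.98 ± 0.19, adjusted p = 0.00177), and Ndufa10 fell by 0.51 (adjusted p = 0.0476). None of 9 complex III genes, 11 complex IV genes and 8 regulators of mitochondrial biogenesis passed, and with the block 1 complex III gene fell. Of 15 ATP synthase genes, Atp5l rose (0.69 ± 0.17, adjusted p = 0.0094) and Atp5g2 fell (−0.84 ± 0.23, adjusted p = 0.0204), which is near the share of all genes called.

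In Bod1L KO cells the same lists gave 3 of 10 transcription genes, 4 of 14 replication genes and 4 of 27 RNA processing genes that fell, and none that rose, where 1.92% of all genes tested fell. With the block 7 replication, 6 RNA processing and 3 of 36 complex I genes fell, against 4.06% of all genes. Tfb1m was at 2.14 to 8.59 CPM (median 3.96) in KO cells, against 14.0 to 21.3 CPM (median 19.6) in WT cells (−2.04 ± 0.23, adjusted p = 6.41e-06). The transcription elongation factor Tefm differed by −0.93 (adjusted p = 0.00371), Dguok by −1.52 (adjusted p = 0.00317), Rnaseh1 by −0.56 (adjusted p = 0.0341), Taco1 by −1.53 (adjusted p = 2.17e-05) and Fastk by −0.71 (adjusted p = 0.00245). No nuclear gene of complexes I, III, IV or ATP synthase passed in Bod1L KO cells.

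In Mll2 KO cells no gene of any of these 8 lists passed by edgeR, and with the block 1 replication gene fell and 1 RNA processing gene rose, against 4.83% and 2.37% of all genes. Tfb1m was at 15.2 to 25.5 CPM in Mll2 KO cells and 13.5 to 25.4 CPM in WT cells, and Taco1 at 9.04 to 12.6 CPM in KO cells and 9.28 to 11.9 CPM in WT cells, with overlap. Against the Mll2 effect, the Setd1a effect was lower for 3 transcription, 4 replication, 7 RNA processing and 1 complex I gene, where it was lower for 2% of all genes.

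Most nuclear genes of complex IV and ATP synthase were also lower in WT EpiSC than in WT 2i. In WT EpiSC against WT 2i, 9 of 11 complex IV genes, 13 of 15 ATP synthase genes, 4 of 9 complex III genes and 9 of 36 complex I genes fell, and 0 rose, where 27.4% of all genes fell and 25.1% rose. The share of complex I genes that fell did not exceed that of all genes. Of the RNA processing genes 16 of 27 fell and 0 rose, led by Grsf1, an RNA granule protein (−2.17, adjusted p = 1.78e-10). The lowest values of complex IV and ATP synthase were those of Cox5a (−1.48) and Atp5g1 (−1.58). An Mll2 WT library had the highest 2i sums, at 3455 CPM for complex IV and 6811 CPM for ATP synthase. The medians of the 12 2i libraries were 1452 and 4202 CPM. Cox5a was at 218 to 744 CPM (median 244) in WT 2i and 81.6 to 127 CPM in WT EpiSC. The counts of nuclear genes were not repeated without single libraries. Of the transcription genes 4 of 10 fell, and of the replication genes 4 of 14 rose and 2 fell. Against WT FCS, 3 of 11 complex IV genes, 6 of 15 ATP synthase genes and 2 of 36 complex I genes fell, while 2 complex I genes rose, where 20.6% of all genes fell and 20.4% rose.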

How the data were processed

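The deposited table gives counts of reads for each gene in 36 libraries. Per the file headers, reads were assigned to Ensembl 87 genes by featureCounts 1.5.2 with strand setting 2 (reverse), and only primary alignments with a mapping quality of 1 or more were used. GSNAP is the aligner and GRCm38 (mm10) the build in the submitters' processing notes. Per the labels' protocols, Trizol RNA went through poly(A) selection, fragmentation, random-primed cDNA synthesis, a strand-specific kit and rRNA removal. Poly(A) selection can lower counts of untailed RNAs and the overlap rule drops reads of overlapping genes, and the effect of these steps and of rRNA removal was not tested. Duplicate handling is not given in the sources used here.

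The 92 ERCC lines held 0 counts and were dropped, leaving 49671 genes (345 without a symbol) of 49763 lines. Counts were fitted with edgeR 4.0.16 in R 4.3.3, beside limma 3.58.1, with TMM scaling, filterByExpr with a minimum count of 10 and the quasi-likelihood test. A single model covered the 18 groups and 23501 genes, leaving 18 residual degrees of freedom. Every adjusted p is a Benjamini-Hochberg value over these genes, called below 0.05. DESeq2 1.42.0 was an alternative, as were upper-quartile scaling, no filter on low counts and leaving out each library. Apart from DESeq2, these fits took the trend of the spread from a subset of the genes, unlike the main fit. A call lost near the threshold without a library therefore cannot be put down to that library alone. The steps were tested on simulated counts. All 37 members are accounted for, the mRNA and rRNA genes are named with values, and tRNA genes are named where among the 3 highest or called. Of the other lists, those with the highest and lowest called difference are named. The members and lists were chosen with earlier results of these data known.

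To see whether replicate numbers pair libraries, the difference between replicates was correlated across genes between KO and WT cells. The correlation was 0.166, 0.236 and 0.707 for Setd1a in 2i, FCS and EpiSC, 0.673, 0.547 and 0.737 for Bod1L, and 0.408, 0.532 and 0.537 for Mll2. The labels state no pairing, so it was inferred from these data, and a fit with the 18 pairs as a block (9 residual degrees of freedom) stands beside results it changes. Sequences came from GENCODE M21 transcripts of GRCm38, in which all 37 genes were matched.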

Additional observations from a re-analysis of the deposited data

Results flagged for a closer look

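For 3 genes the knockout effect differed between lines by a test of the difference, averaged over media. The Setd1a effect exceeded the Mll2 effect by a log2 difference of 1.416 for mt-Nd3 (adjusted p = 0.00338), 1.128 for mt-Nd2 (adjusted p = 0.019) and 1.039 for mt-Nd1 (adjusted p = 0.0187, edgeR). This comparison was added after the data were seen.

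In the Bod1L line some genes lay above WT in both KO libraries of 1 medium and below WT in both KO libraries of another. The values are the log2 of the KO mean over the WT mean. For mt-Co1 they were 0.67 as EpiSC and 0.15 in 2i, with −0.24 in FCS. For mt-Nd5 they were 0.82 as EpiSC and 0.37 in 2i, with −0.32 in FCS. For mt-Co3 the value was 0.64 as EpiSC and −0.50 in FCS. For mt-Nd6 it was 0.28 as EpiSC, −0.30 in 2i and −0.80 in FCS. The difference between each pair of media was not tested, and the share of all genes with this pattern was not counted. The joint test over the 3 media called none of the 26 genes, with 7 at an unadjusted p below 0.05, against 1.04% of all genes.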

How the results depend on the processing

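No called gene reversed its direction under any setting tried. The share differences of Setd1a KO and Bod1L KO in FCS, where the groups overlap, changed sign when single libraries were left out. So did those of Mll2 KO in 2i (−0.012 to 0.894 percentage points) and as EpiSC (−0.287 to 0.101). The same held for Setd1a WT against Bod1L WT averaged over media (−0.134 to 0.364). Counts of called genes that moved by more than 1.5 times are given here, in either direction among the 26 genes. Shares of all genes called under DESeq2 or with no filter are not given, so those counts stand without a background. With the replicate block the counts were 10 for Setd1a KO in 2i, 11 for Setd1a KO as EpiSC, 4 for Bod1L KO averaged, 6 for Bod1L KO as EpiSC, 2 for Mll2 KO in 2i, 7 for the Setd1a against the Mll2 effect, 1 for the Mll2 against the Bod1L effect, and 1 each for the Setd1a and Mll2 effects differing between media. The pairing changed no other count that far. With no filter on low counts they were 11 and 11 for Setd1a KO in 2i and as EpiSC, 6 and 6 for Bod1L KO averaged and as EpiSC, 2 for Mll2 KO in 2i, 8 for the Setd1a against the Mll2 effect, 1 for the Mll2 against the Bod1L effect, 3 for WT FCS against 2i, 0 for Setd1a WT against Bod1L WT, 2 for Mll2 WT against Bod1L WT, and 3, 1 and 2 for Setd1a, Bod1L and Mll2 effects differing between media. By DESeq2 they were 9 for Setd1a KO as EpiSC, 4 for Bod1L KO as EpiSC, 2 for Mll2 KO in 2i, 6 for the Setd1a against the Mll2 effect, 1 for WT FCS against 2i and 1 for Mll2 WT against Bod1L WT. Upper-quartile scaling gave 1 for WT FCS against 2i and lowered the median of all genes by 0.106 for WT EpiSC against FCS, where 23 of the 26 genes then fell. Without the 2 libraries of high rRNA, Mll2 KO in 2i had 0. The cause of these moves was not tested.

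Leaving out 1 library gave 7 to 11 calls for Setd1a KO averaged, 1 to 3 in 2i and 0 to 7 as EpiSC, 0 to 3 for Bod1L KO averaged and for Mll2 KO in 2i, 1 to 4 for the Setd1a against the Mll2 effect, 13 to 20 for WT EpiSC against 2i, 16 to 22 for WT EpiSC against FCS, and 0 to 1 for WT FCS against 2i, Setd1a WT against Bod1L WT and Mll2 WT against Bod1L WT. The KO minus WT share ran from −0.801 to 0.693 percentage points for Setd1a in FCS, 1.193 to 3.567 for Setd1a as EpiSC and −1.297 to 0.137 for Bod1L in FCS. A group left with 1 library was taken to have the spread of the rest. Depth did not limit the mRNAs and rRNAs, while 13 of 22 tRNA genes had mean counts under 10.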
